A study of Arabidopsis thaliana with 9 samples.

Results

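Seedlings of Arabidopsis thaliana labelled nrpd1-3 were compared with wild-type Col-0 seedlings, which asks which polyadenylated transcripts differ when the gene of the catalytic Pol IV subunit, NRPD1, is mutated. The comparison uses n = 3 nrpd1-3 libraries and n = 3 Col-0 libraries out of 9 in the series. The genes were those with an FPKM (fragments per kilobase of gene, scaled to the mapped fragments of the library) of at least 1 in at least 3 of these 6 libraries, which kept 17568 of the 37898 genes in the table. The other 20330 genes were below that level. Of the genes kept, 37 passed through the nrpd1-3 libraries alone and 18 through the Col-0 libraries alone.

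By their label, the nrpd1-3 plants carry a mutant allele of NRPD1 in the Col-0 ecotype. The nrpe1-11 plants, set beside them as another mutant, are labelled with an allele of NRPE1 in the same ecotype. The Col-0 plants are labelled wild type. All 3 genotypes were labelled Mock and were 2-week-old seedlings, grown in long days (22 °C for the 16 h in light, 18 °C for the other 8 h). Each mutant is represented by 1 allele, so an effect of the gene and an effect of the line cannot be told apart. Whether replicate libraries are independent pools of plants is not labelled, and the p-values therefore describe library-to-library spread alone, which may be technical. In RNA from seedlings, fewer cells of a type and less RNA per cell cannot be told apart.

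RNA-directed DNA methylation (RdDM) is the plant pathway in which small interfering RNAs guide new DNA methylation to transposons and repeats. RNA polymerase IV makes the precursor transcripts, RDR2 copies them into double strands, DCL3 cuts these into small RNAs, and AGO4-type proteins carry the small RNAs to transcripts that RNA polymerase V makes at the target, where DRM2 methylates the DNA. Loss of either polymerase is known to lower methylation at RdDM targets, and the series title names a role of Pol V transcripts outside this pathway.

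At SDC, FWA and ROS1 the promoter itself is the known link between RdDM and the transcript, and their promoters are shown for that reason. The windows run from 250 bases before to 50 bases after the annotated start in the TAIR10.1 assembly (RefSeq), 300 bases each. SDC, an F-box gene, lies at chr2:7681912-7682211 on the + strand, and FWA, a homeodomain gene, at chr4:13038110-13038409 on the + strand. Both are known to be silenced through tandem repeats at the promoter, and the capitals mark the 2 copies of the longest exact repeat, 38 bases in each gene. Inexact copies are not marked. In SDC, similar stretches before, between and after the capitals stay in lower case. The capitals therefore give neither the unit nor the copy number of its tandem repeat. The ROS1 window lies at chr2:15314758-15315057 on the − strand. ROS1 encodes a DNA glycosylase that removes DNA methylation, and its transcript is known to depend on RdDM at this promoter. Capitals in the ROS1 window mark its CG dinucleotides.
SDC: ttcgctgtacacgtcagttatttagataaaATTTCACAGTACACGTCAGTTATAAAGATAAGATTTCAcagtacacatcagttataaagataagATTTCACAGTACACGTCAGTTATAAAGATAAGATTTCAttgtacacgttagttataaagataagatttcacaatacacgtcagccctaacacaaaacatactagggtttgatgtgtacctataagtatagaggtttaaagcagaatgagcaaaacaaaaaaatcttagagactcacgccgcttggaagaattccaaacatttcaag
FWA: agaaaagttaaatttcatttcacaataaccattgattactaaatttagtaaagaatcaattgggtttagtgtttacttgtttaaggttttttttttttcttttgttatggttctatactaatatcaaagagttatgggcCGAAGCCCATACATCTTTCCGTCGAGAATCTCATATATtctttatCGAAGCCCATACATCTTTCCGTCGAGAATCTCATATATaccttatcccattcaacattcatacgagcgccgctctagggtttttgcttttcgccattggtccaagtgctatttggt
ROS1: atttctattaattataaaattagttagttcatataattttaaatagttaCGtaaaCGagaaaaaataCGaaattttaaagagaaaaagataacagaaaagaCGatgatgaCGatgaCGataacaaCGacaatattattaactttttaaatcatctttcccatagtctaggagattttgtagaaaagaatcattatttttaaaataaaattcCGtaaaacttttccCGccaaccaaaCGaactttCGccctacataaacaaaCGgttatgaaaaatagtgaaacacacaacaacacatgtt
Exact repeats of at least 38 bases were found in 29 of 17567 promoter windows of the same length (0.165%), against a median longest repeat of 9 bases. The ROS1 window held 12 CG dinucleotides against a median of 6, and 14.2% of the windows held at least as many. Both strands were also searched for the evening element AAATATCT (in 6.03% of the windows), the G-box CACGTG (8.68%), the W-box TTGACC or TTGACT (33%), the GCC-box GCCGCC (2.74%) and the dehydration-responsive element CCGAC (16.4%). None of these letters occurred in the 3 windows.

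None of the 3 genes was called between nrpd1-3 and Col-0. FWA was listed at 0 FPKM in every library of the 3 genotypes. SDC had 0.215, 0.965 and 0.548 FPKM in nrpd1-3, 0.107, 0.316 and 0.731 FPKM in nrpe1-11, and 0.284, 0.456 and 0.520 FPKM in Col-0. The 3 genotypes overlapped and every SDC value was below the expression filter. ROS1 had 4.41, 4.44 and 4.22 FPKM in nrpd1-3, 0.980, 0.887 and 1.11 FPKM in nrpe1-11, and 4.79, 3.42 and 3.89 FPKM in Col-0. The nrpd1-3 libraries lay within the range of Col-0, and every nrpe1-11 library lay below both. The difference in mean log2(FPKM + 1), the scale of every difference given here, was 0.10 for ROS1 in nrpd1-3 minus Col-0, with a 95% interval from −0.28 to 0.47 (limma adjusted p = 0.88). The ROS1 difference of nrpd1-3 minus nrpe1-11 was 1.43 (limma adjusted p = 2.99e-05). The added 1 makes these differences understate the change of genes with few FPKM.

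The transcript of the mutated gene was read as a check of the labels. NRPD1 (AT1G63020, chr1:23354685-23362589, − strand) had 0.674, 0.670 and 0.947 FPKM in the libraries labelled nrpd1-3, 1.56, 1.98 and 2.30 FPKM in nrpe1-11, and 0.565, 0.489 and 1.05 FPKM in Col-0. The nrpd1-3 and Col-0 libraries overlapped, and nrpe1-11 lay above both. The NRPD1 difference of nrpd1-3 minus Col-0 was 0.06 with a 95% interval from −0.31 to 0.43 (limma without the filter, adjusted p = 0.928). That of nrpd1-3 minus nrpe1-11 was −0.74 (adjusted p = 0.0257). A value over the whole gene does not show where an allele interrupts it, and the labels give no position, so the transcript level does not check the genotype. Loss of Pol IV activity in the nrpd1-3 plants was not tested, so the comparison describes plants with this label. NRPE1, which encodes the catalytic subunit of Pol V, had 1.40, 1.28 and 1.19 FPKM in nrpd1-3, 0.624, 0.254 and 0.339 FPKM in nrpe1-11, and 0.831, 0.843 and 0.863 FPKM in Col-0. NRPE1 is 1 of the 37 genes that passed the filter through the nrpd1-3 libraries alone, where it is high, so its separation from the other genotypes is a description and supports nothing. The nrpd1-3 minus Col-0 difference of NRPE1 was 0.31 (95% interval −0.14 to 0.76, adjusted p = 0.703) and did not pass, and that of nrpd1-3 minus nrpe1-11 was 0.71 (adjusted p = 0.0331).

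**Figure D1:**
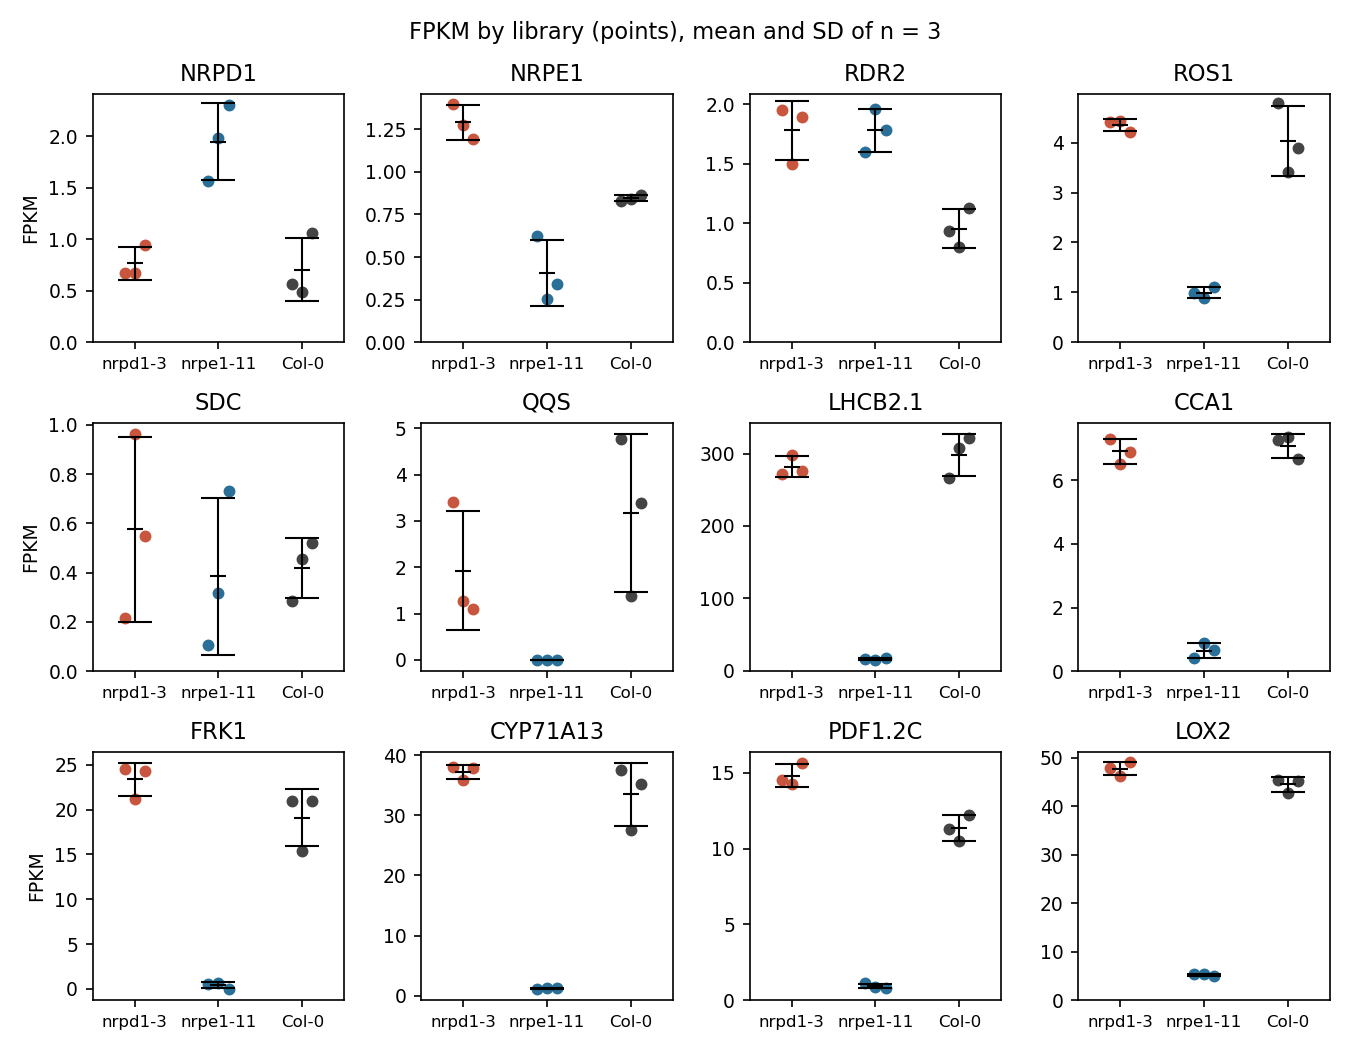
FPKM of 12 genes (vertical axis, each panel on its own linear scale) in nrpd1-3, nrpe1-11 and Col-0, with points for libraries and bars for mean and SD of n = 3. In ROS1, LHCB2.1, CCA1, FRK1, CYP71A13, PDF1.2C and LOX2 the nrpe1-11 points sit far below the nrpd1-3 points, which lie near Col-0.

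Across all genes, no transcript passed the test between nrpd1-3 and Col-0. Limma called 0 of 17568 genes at an adjusted p under 0.05 (0%), and the smallest adjusted p was 0.677. At an unadjusted p under 0.05 there were 1254 genes (7.14%), of which 1140 were higher (6.49%) and 114 lower (0.649%) in nrpd1-3. The 3 nrpd1-3 libraries lay wholly above the 3 Col-0 libraries in 1794 genes (10.2%) and wholly below in 260 (1.48%). The 95% interval of the difference lay within 2-fold of FPKM + 1 in both directions for 16936 genes (96.4%). Changes in FPKM itself can be larger, above all in genes with few FPKM. The median standard error was 0.17. In the same fit, 2684 of these genes differed between nrpd1-3 and nrpe1-11 (15.3%), 1563 of them higher (8.9%) and 1121 lower (6.38%) in nrpd1-3. These shares depend on the scaling. After rescaling to the protein-coding sum, 1689 genes were higher and 1768 lower.

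The uneven split at the unadjusted threshold went with a small offset of whole libraries. The median difference over all tested genes was 0.11, and 13241 differences were positive against 4327 negative. Library by library, the median deviation of a gene from its mean over the 6 libraries was 0.11, −0.04 and 0.11 in nrpd1-3 and 0.01, −0.18 and 0.02 in Col-0, so Col-0 replicate 2 stood lowest. The share of summed FPKM in ribosomal RNA genes was 15.9%, 19.7% and 14.2% in nrpd1-3 and 16.8%, 21.4% and 17.3% in Col-0. Col-0 replicate 2 thus had the highest ribosomal share, and also the lowest share in protein-coding genes, 66.9%. After median-ratio rescaling the median difference was near 0 (0.000183), and 437 genes were higher and 484 lower at an unadjusted p under 0.05. Without Col-0 replicate 2 the median difference was 0.04, with 509 genes higher and 156 lower. Leaving out replicate 1 of nrpd1-3 gave 571 genes higher, replicate 2 gave 1954, and replicate 3 gave 575. The adjusted test called 0 genes each time. The part of ribosomal RNA in these counts was not tested, and group medians are therefore set beside the median of all tested genes.

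**Figure D2:**
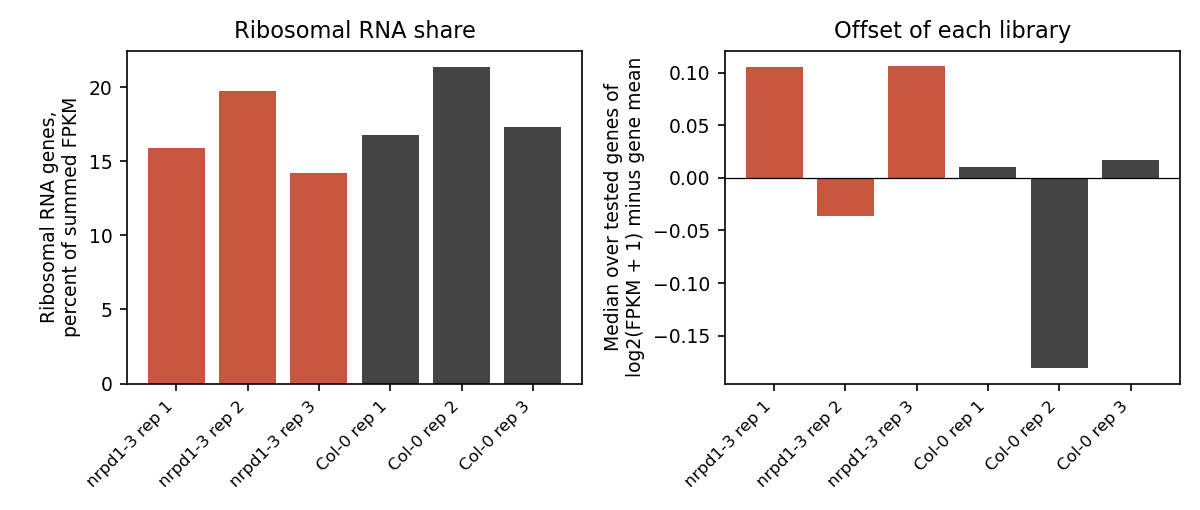
Share of summed FPKM in ribosomal RNA genes in percent and median offset of each library in log2(FPKM + 1) over the tested genes, for the 3 nrpd1-3 and 3 Col-0 libraries, 1 bar each. Col-0 replicate 2 has the highest share, 21.4%, and the lowest offset, −0.18.

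**Figure D3:**
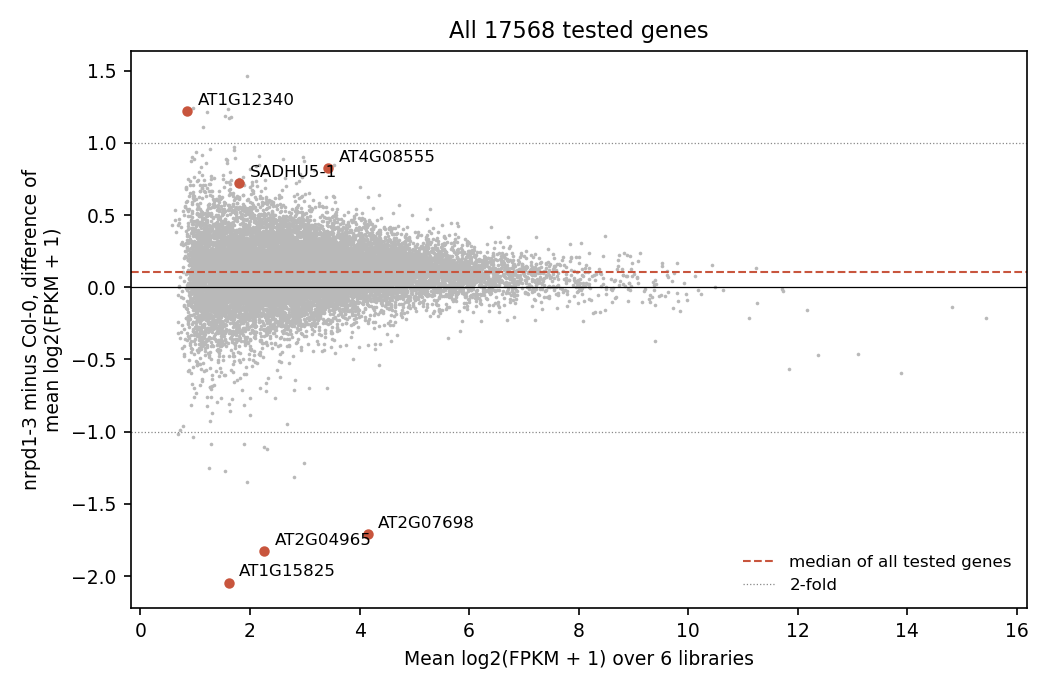
Difference of mean log2(FPKM + 1), nrpd1-3 minus Col-0 (vertical axis), against mean log2(FPKM + 1) over the 6 libraries (horizontal axis) for the 17568 tested genes, 1 grey point each, with 6 genes named in red. The dashed line is the median difference, 0.11, and 23 genes lie past the dotted lines at 2-fold of FPKM + 1.

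The libraries were otherwise close. Correlations of log2(FPKM + 1) across genes, which are not independent replicates, were 0.968 to 0.981 between nrpd1-3 and Col-0 libraries, 0.976 to 0.980 among nrpd1-3 libraries, and 0.973 to 0.982 among Col-0 libraries. An FPKM of 1 was reached by 16802 to 17604 genes, depending on the library. The 5 flower markers summed to 2.19 to 3.24 FPKM in nrpd1-3 and 0.959 to 3.92 FPKM in Col-0, and 2 of the 3 seed storage markers were listed at 0 in all 6 libraries. The 12 root markers summed to 438 to 532 FPKM in nrpd1-3 and 362 to 479 FPKM in Col-0, mostly from PYK10, a beta-glucosidase of root and hypocotyl, and 4 of the 12 stayed under 1 FPKM in all 6 libraries. Of these root markers 8 were tested, 0 were called, and the median difference was 0.22, or 0.11 relative to the median of all tested genes. PHO1, a phosphate exporter of the root stele, had 26.5, 26.1 and 25.8 FPKM in nrpd1-3, 36.5, 36.0 and 35.3 FPKM in nrpe1-11, and 23.1, 19.8 and 22.8 FPKM in Col-0. The nrpd1-3 values lay between the other genotypes without overlap (difference from Col-0 0.25, adjusted p = 0.677). CASP1, a Casparian strip protein, differed from Col-0 by 0.43 and PYK10 by 0.19 (adjusted p = 0.677 each). The part of root tissue in other differences was not tested.

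The RdDM machinery showed no called gene in nrpd1-3. Of 33 listed genes 26 were tested, and the median difference was 0.12, against 0.11 over all tested genes. At an unadjusted p under 0.05, 3 were higher in nrpd1-3 and 0 lower (11.5%, against 7.14% of all genes). RDR2, the RNA-dependent RNA polymerase that works with Pol IV, had 1.95, 1.5 and 1.90 FPKM in nrpd1-3, 1.60, 1.96 and 1.78 FPKM in nrpe1-11, and 0.935, 0.800 and 1.13 FPKM in Col-0. All nrpd1-3 values lay above all Col-0 values, and the nrpd1-3 and nrpe1-11 values overlapped. The RDR2 difference was 0.51 (95% interval 0.09 to 0.93, adjusted p = 0.677). RDM4, a factor that binds plant RNA polymerases, had 6.67, 7.44 and 6.63 FPKM in nrpd1-3 against 5.68, 3.48 and 5.28 FPKM in Col-0, a difference of 0.46 (adjusted p = 0.677). SUVH9, which binds methylated DNA and recruits Pol V, had 9.25, 8.68 and 9.68 FPKM in nrpd1-3 against 8.31, 6.49 and 7.16 FPKM in Col-0, a difference of 0.30 (adjusted p = 0.677). RDR2, RDM4 and SUVH9 were among 7 of the 26 whose nrpd1-3 libraries lay wholly above Col-0 (10.2% of all genes). NRPE1, which passed the filter through nrpd1-3 alone, is also 1 of these 7. Wholly below Col-0 lay 1 of the 26, SUVH2 (1.48% of all genes). SUVH2 had 2.22, 2.502 and 2.11 FPKM in nrpd1-3 against 2.504, 2.77 and 3.15 FPKM in Col-0, so the groups nearly touched. The SUVH2 difference was −0.21 (adjusted p = 0.777). After median-ratio rescaling 1 of the 26 had an unadjusted p under 0.05.

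Members of other steps were named for their role. NRPD2A, the subunit that Pol IV and Pol V share, had 4.84, 5.23 and 4.97 FPKM in nrpd1-3 against 4.87, 4.02 and 4.19 FPKM in Col-0. SHH1, which recruits Pol IV to methylated histone H3, had 4.0, 1.89 and 4.23 FPKM in nrpd1-3 against 3.04, 4.57 and 3.46 FPKM in Col-0. Both genes overlapped between the genotypes. DCL3, the dicer of the pathway, had 1.37, 1.14 and 1.20 FPKM in nrpd1-3 against 1.32, 1.24 and 1.18 FPKM in Col-0. AGO4 had 7.48, 5.71 and 7.30 FPKM in nrpd1-3 against 6.37, 5.63 and 6.54 FPKM in Col-0. DRM2, the methyltransferase, had 3.75, 4.97 and 5.85 FPKM in nrpd1-3 against 5.40, 3.03 and 4.83 FPKM in Col-0. Groups overlapped in DCL3, AGO4 and DRM2 as well. Of the 26 tested members 4 differed between nrpd1-3 and nrpe1-11, a share close to the 15.3% of all tested genes. The 1 higher in nrpd1-3 was NRPE1, which the filter kept through nrpd1-3 alone. NRPE5 (−0.66, adjusted p = 0.00751), FDM1 (−0.53, adjusted p = 0.0149) and FDM2 (−0.58, adjusted p = 0.0496) were lower. NRPE5 is a subunit of Pol V, and FDM1 and FDM2 bind RNA in the pathway.

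Among genes that maintain or remove DNA methylation, 19 of 24 were tested, 0 were called and the median difference was 0.07. CMT2, a chromomethylase of heterochromatin, had 3.48, 2.80 and 3.42 FPKM in nrpd1-3, 3.64, 2.96 and 3.46 FPKM in nrpe1-11, and 1.98, 2.2 and 2.47 FPKM in Col-0. Both mutants lay above every Col-0 library, and the nrpd1-3 minus Col-0 difference was 0.40 (95% interval 0.03 to 0.77, adjusted p = 0.677). CMT2 was the 1 member with an unadjusted p under 0.05 (5.26%, against 7.14% of all genes). HDA6, a histone deacetylase, had 6.27, 4.88 and 5.34 FPKM in nrpd1-3 against 6.75, 5.82 and 6.61 FPKM in Col-0 (difference −0.19, adjusted p = 0.759), with overlapping groups. SUVH6, a histone H3 methyltransferase, differed by 0.14 (adjusted p = 0.791). MET1, the CG maintenance methyltransferase, had 3.77, 3.95 and 4.56 FPKM in nrpd1-3 against 3.54, 3.74 and 4.26 FPKM in Col-0, and overlapped as well. ROS1, given above, was the 1 of the 19 tested members that differed between nrpd1-3 and nrpe1-11, against 15.3% of all tested genes.

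Of loci known to respond to methylation, 7 of 10 were tested, 0 were called and none had an unadjusted p under 0.05, with a median difference of 0.10. QQS, a starch regulator with known natural epialleles, had 3.41, 1.27 and 1.10 FPKM in nrpd1-3 and 4.77, 1.38 and 3.39 FPKM in Col-0, and was listed at 0 in all 3 nrpe1-11 libraries. The nrpd1-3 and Col-0 ranges overlapped (difference −0.51, 95% interval −1.20 to 0.18, adjusted p = 0.688). RMG1, an immune receptor gene with a repeat in its promoter, had 2.66, 2.15 and 2.12 FPKM in nrpd1-3, 0.205, 0.400 and 0.249 FPKM in nrpe1-11, and 1.89, 2.48 and 2.37 FPKM in Col-0. SNC1, an immune receptor of the RPP5 cluster, had 26.8, 21.3 and 24.6 FPKM in nrpd1-3, 14.4, 15.7 and 14.7 FPKM in nrpe1-11, and 22.8, 17.6 and 22.1 FPKM in Col-0. In RMG1 and SNC1 the nrpd1-3 values overlapped Col-0 and lay above every nrpe1-11 value. The differences of nrpd1-3 minus Col-0 were 0.03 for RMG1, 0.21 for SNC1 and 0.21 for HISN6B, a histidine synthesis gene with known epialleles (adjusted p = 0.975, 0.677 and 0.765). The differences of nrpd1-3 minus nrpe1-11 were 1.36 for RMG1 (adjusted p = 0.000158) and 0.66 for SNC1 (adjusted p = 0.00163). QQS was called too (adjusted p = 0.00548), and 5 of the 7 tested loci were called higher in nrpd1-3 than in nrpe1-11, against 8.9% of all tested genes. These 5 were RMG1, SNC1, QQS, CML41 (0.63, adjusted p = 0.0481) and ROS1, which is also counted in the list before. The loci were chosen with earlier results of these data known, so their share is a description and supports nothing.

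Genes whose annotation text names a transposable element numbered 98, of which 18 were tested, 0 were called and the median difference was 0.02. Many of those tested are protein-coding genes, such as MUG3 and MUG7, annotated as MuDR family transposases. Most of the others are Sadhu pseudogenes, so this median does not describe transposons at large. The Sadhu elements, a family of retroelements, are named here after their values were seen. SADHU5-1 (AT4G01525, chr4:660810-661698, + strand) had 4.29, 2.85 and 3.41 FPKM in nrpd1-3, 0.314, 0.141 and 0.650 FPKM in nrpe1-11, and 1.75, 1.54 and 1.86 FPKM in Col-0. The 3 genotypes did not overlap, with nrpd1-3 highest, and the nrpd1-3 minus Col-0 difference was 0.72 (95% interval 0.27 to 1.18, adjusted p = 0.677). SADHU5-1 was the 1 tested gene of this class with an unadjusted p under 0.05 (5.56%, against 7.14% of all genes). SADHU1-1 (AT2G10410, chr2:4005995-4007044, − strand) had 31.0, 38.2 and 37.7 FPKM in nrpd1-3, 65.6, 53.7 and 57.9 FPKM in nrpe1-11, and 38.5, 45.6 and 38.7 FPKM in Col-0. Here nrpd1-3 lay below Col-0 without overlap (difference −0.20, 95% interval −0.44 to 0.04, adjusted p = 0.677). SADHU5-1 was higher in nrpd1-3 than in nrpe1-11, with a difference of 1.73 (adjusted p = 3.12e-05), and SADHU1-1 was lower, with a difference of −0.72 (adjusted p = 0.000358). SADHU1-1 overlaps a gene on the other strand. The sources used here do not give the strandedness of the libraries, and the values of genes that overlap a neighbour may include it. Among the genes named above and below, this holds for SHH1, DCL3, NRPE5, SUVH6, FLS2, WRKY33, FRK1, CYP71A13, CYP81F4, TCH3, CASP1, PYK10, FLC, SDC, HSP101, UGE3 and emb1513. SUVH2 also overlaps a gene on the other strand. HDA6 and AT5G11090 each overlap a gene on their own strand.

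Small RNA genes outside RdDM had 17 of 20 tested, 0 called against Col-0, and a median difference of 0.10. TAS2, a precursor of trans-acting small RNAs, had 9.59, 6.10 and 8.50 FPKM in nrpd1-3 against 7.08, 4.26 and 5.97 FPKM in Col-0 (difference 0.42, adjusted p = 0.677), with overlapping ranges. TAS1A, another such precursor, had 7.16, 3.91 and 9.01 FPKM in nrpd1-3 against 4.37, 4.42 and 4.71 FPKM in Col-0. Of its nrpd1-3 libraries 1 lay below Col-0 and the other two above. AGO10, an Argonaute of the shoot meristem, had 8.33, 7.73 and 8.34 FPKM in nrpd1-3 against 7.34, 5.97 and 7.28 FPKM in Col-0 (difference 0.22, adjusted p = 0.678), with no overlap. No tested member of this list was called between nrpd1-3 and nrpe1-11, against 15.3% of all tested genes.

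Defense lists held no called gene between nrpd1-3 and Col-0, and many between nrpd1-3 and nrpe1-11. All lists were chosen with earlier results of these data known. In this and every other list, the shares called against nrpe1-11 are therefore descriptions and support nothing. In the jasmonate and ethylene list 31 of 32 genes were tested. Against Col-0, 0 were called and the median difference was 0.11. At an unadjusted p under 0.05 there was 1 gene higher and 1 lower (6.45%, against 7.14% of all genes). PDF1.2C, a plant defensin with near-identical copies that may share its reads, had 14.5, 14.2 and 15.7 FPKM in nrpd1-3, 1.11, 0.864 and 0.813 FPKM in nrpe1-11, and 11.3, 10.5 and 12.3 FPKM in Col-0. The nrpd1-3 libraries lay above Col-0 without overlap (difference 0.36, 95% interval 0.05 to 0.66, adjusted p = 0.677), and nrpe1-11 lay below both. ERF1, a transcription factor that joins ethylene and jasmonate signals, had 1.72, 1.5 and 1.61 FPKM in nrpd1-3, 0, 0.188 and 0.166 FPKM in nrpe1-11, and 2.15, 2.50 and 3.35 FPKM in Col-0. Its nrpd1-3 values lay between the others (nrpd1-3 minus Col-0 −0.48, 95% interval −0.92 to −0.03, adjusted p = 0.677). AOC3, an allene oxide cyclase of jasmonate synthesis, had 6.95, 5.65 and 5.20 FPKM in nrpd1-3 against 4.38, 4.94 and 4.23 FPKM in Col-0 (difference 0.32, adjusted p = 0.677). Against nrpe1-11, 22 of the 31 were called, all higher in nrpd1-3 (8.9% of all tested genes were), with a median difference of 1.14 beside −0.06 over all tested genes. LOX2, a plastid lipoxygenase of jasmonate synthesis, had 47.8, 46.3 and 49.1 FPKM in nrpd1-3, 5.37, 5.39 and 4.90 FPKM in nrpe1-11, and 45.5, 42.8 and 45.3 FPKM in Col-0. The LOX2 difference was 2.97 in nrpd1-3 minus nrpe1-11 (adjusted p = 1.35e-11) and 0.10 in nrpd1-3 minus Col-0 (95% interval −0.11 to 0.31, adjusted p = 0.778).

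The salicylic acid list gave 0 calls against Col-0 among the 21 tested of 23 genes, none with an unadjusted p under 0.05, and a median difference of 0.15. CBP60G, an activator of salicylic acid synthesis, had 11.7, 10.4 and 14.9 FPKM in nrpd1-3, 4.84, 4.58 and 6.12 FPKM in nrpe1-11, and 9.08, 8.78 and 10.9 FPKM in Col-0. WRKY46, a WRKY transcription factor, had 7.80, 4.54 and 6.41 FPKM in nrpd1-3, 0.750, 0.873 and 1.39 FPKM in nrpe1-11, and 6.49, 3.26 and 3.37 FPKM in Col-0. EDS1, a lipase-like hub of immune signalling, had 10.9, 9.79 and 11.3 FPKM in nrpd1-3 against 9.95, 7.34 and 9.11 FPKM in Col-0. The nrpd1-3 and Col-0 ranges overlapped in these 3 genes, with differences of 0.32 for CBP60G, 0.46 for WRKY46 and 0.26 for EDS1 (adjusted p = 0.677 each). Between the mutants 11 were called, 10 higher and 1 lower in nrpd1-3, against 8.9% higher and 6.38% lower over all tested genes. The lower one was PR1, the marker of systemic acquired resistance, with 13.2, 8.83 and 14.9 FPKM in nrpd1-3, 19.5, 21.6 and 25.9 FPKM in nrpe1-11, and 9.42, 13.2 and 10.9 FPKM in Col-0. The PR1 difference of nrpd1-3 minus nrpe1-11 was −0.83 (adjusted p = 0.00396), and that of nrpd1-3 minus Col-0 was 0.11 (adjusted p = 0.858).

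All 17 genes of pattern-triggered immunity were tested, 0 were called against Col-0, none had an unadjusted p under 0.05 and the median difference was 0.14. FLS2, the receptor of bacterial flagellin, had 9.26, 8.91 and 9.28 FPKM in nrpd1-3, 8.83, 9.23 and 9.24 FPKM in nrpe1-11, and 8.48, 5.17 and 8.08 FPKM in Col-0. Both mutants lay above Col-0 (nrpd1-3 minus Col-0 0.33, adjusted p = 0.677). PROPEP3, the precursor of a danger peptide, had 27.6, 11.8 and 15.8 FPKM in nrpd1-3, 1.85, 0.849 and 1.04 FPKM in nrpe1-11, and 14.6, 9.0 and 12.8 FPKM in Col-0. WRKY33, a regulator of camalexin synthesis, had 53.1, 46.0 and 54.6 FPKM in nrpd1-3, 8.79, 13.0 and 12.5 FPKM in nrpe1-11, and 50.2, 36.2 and 43.9 FPKM in Col-0. In PROPEP3 and WRKY33 the nrpd1-3 and Col-0 ranges overlapped (differences 0.51 and 0.24, adjusted p = 0.677 and 0.679) while nrpe1-11 lay below both. Between the mutants 11 of 17 were called, all higher in nrpd1-3, against 8.9% of all tested genes. FRK1, a receptor kinase used as a marker of this response, differed by 4.17 in nrpd1-3 minus nrpe1-11 (adjusted p = 4.55e-10) and by 0.29 in nrpd1-3 minus Col-0 (95% interval −0.11 to 0.69, adjusted p = 0.689).

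Camalexin and indole glucosinolates are antimicrobial indoles, and their genes were tested in full (12 of 12), with 0 called against Col-0, none with an unadjusted p under 0.05, and a median difference of 0.15. MYB51, an activator of indole glucosinolate synthesis, had 26.6, 21.0 and 24.5 FPKM in nrpd1-3, 3.97, 4.04 and 3.75 FPKM in nrpe1-11, and 21.1, 17.1 and 21.4 FPKM in Col-0. Of the nrpd1-3 libraries 1 fell inside the Col-0 range of MYB51 (difference 0.26, adjusted p = 0.677). MYB122, a relative of MYB51, differed from Col-0 by 0.41, and CYP81F4, an enzyme that modifies indole glucosinolates, by 0.19 (adjusted p = 0.677 each). Of the 12 genes 9 were called between the mutants, all higher in nrpd1-3 (8.9% of all tested genes were), with a median of 1.29. CYP71A13, an enzyme of camalexin synthesis, had 38.0, 35.8 and 37.8 FPKM in nrpd1-3, 1.16, 1.26 and 1.23 FPKM in nrpe1-11, and 37.6, 27.5 and 35.3 FPKM in Col-0. The nrpd1-3 minus nrpe1-11 difference of CYP71A13 was 4.10 (adjusted p = 7.51e-12), and that of nrpd1-3 minus Col-0 was 0.16 (95% interval −0.12 to 0.44).

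Immune receptors of the NLR type gave 0 calls among 16 of 16 against Col-0, none with an unadjusted p under 0.05, and a median difference of 0.14. RPP4, a receptor for downy mildew, had 18.2, 14.2 and 18.7 FPKM in nrpd1-3, 7.47, 7.56 and 7.08 FPKM in nrpe1-11, and 14.5, 12.2 and 15.7 FPKM in Col-0, with nrpd1-3 and Col-0 overlapping. The RPP4 difference was 0.25 from Col-0 (adjusted p = 0.677) and 1.10 from nrpe1-11 (adjusted p = 3.42e-05). NRG1.1, a helper receptor, differed from Col-0 by 0.32 and RPS4 by 0.20 (adjusted p = 0.677 and 0.727). Between the mutants 6 of the 16 were called, all higher in nrpd1-3, against 8.9% of all tested genes.

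Touch, wounding and early stress genes had a higher median than most lists, again with no call. Of 16 genes 11 were tested, 9 lay above the median of all tested genes, and the median difference was 0.20, or 0.09 relative to that median and 0.08 after median-ratio rescaling. CML38, a calmodulin-like protein induced by wounding, had 8.57, 6.90 and 9.24 FPKM in nrpd1-3, 5.22, 4.49 and 2.74 FPKM in nrpe1-11, and 6.24, 3.95 and 3.81 FPKM in Col-0. All nrpd1-3 values lay above both other genotypes (nrpd1-3 minus Col-0 0.72, 95% interval 0.27 to 1.18, adjusted p = 0.677, and nrpd1-3 minus nrpe1-11 0.87, adjusted p = 0.0107). TCH3, a touch-induced calmodulin-like protein, had 259.8, 241.7 and 246.9 FPKM in nrpd1-3, 107.8, 108.3 and 95.2 FPKM in nrpe1-11, and 219.5, 197.2 and 233.6 FPKM in Col-0. Its nrpd1-3 values lay above Col-0 without overlap (difference 0.20, adjusted p = 0.677) and above nrpe1-11. ERF6, an ethylene response factor, differed from Col-0 by 0.26 (adjusted p = 0.677). CML38 and TCH3 were the 2 members with an unadjusted p under 0.05 (18.2%, against 7.14% of all genes), and 1 member had one after median-ratio rescaling. Between the mutants 10 of the 11 were called, all higher in nrpd1-3, against 8.9% of all tested genes.

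**Figure D4:**
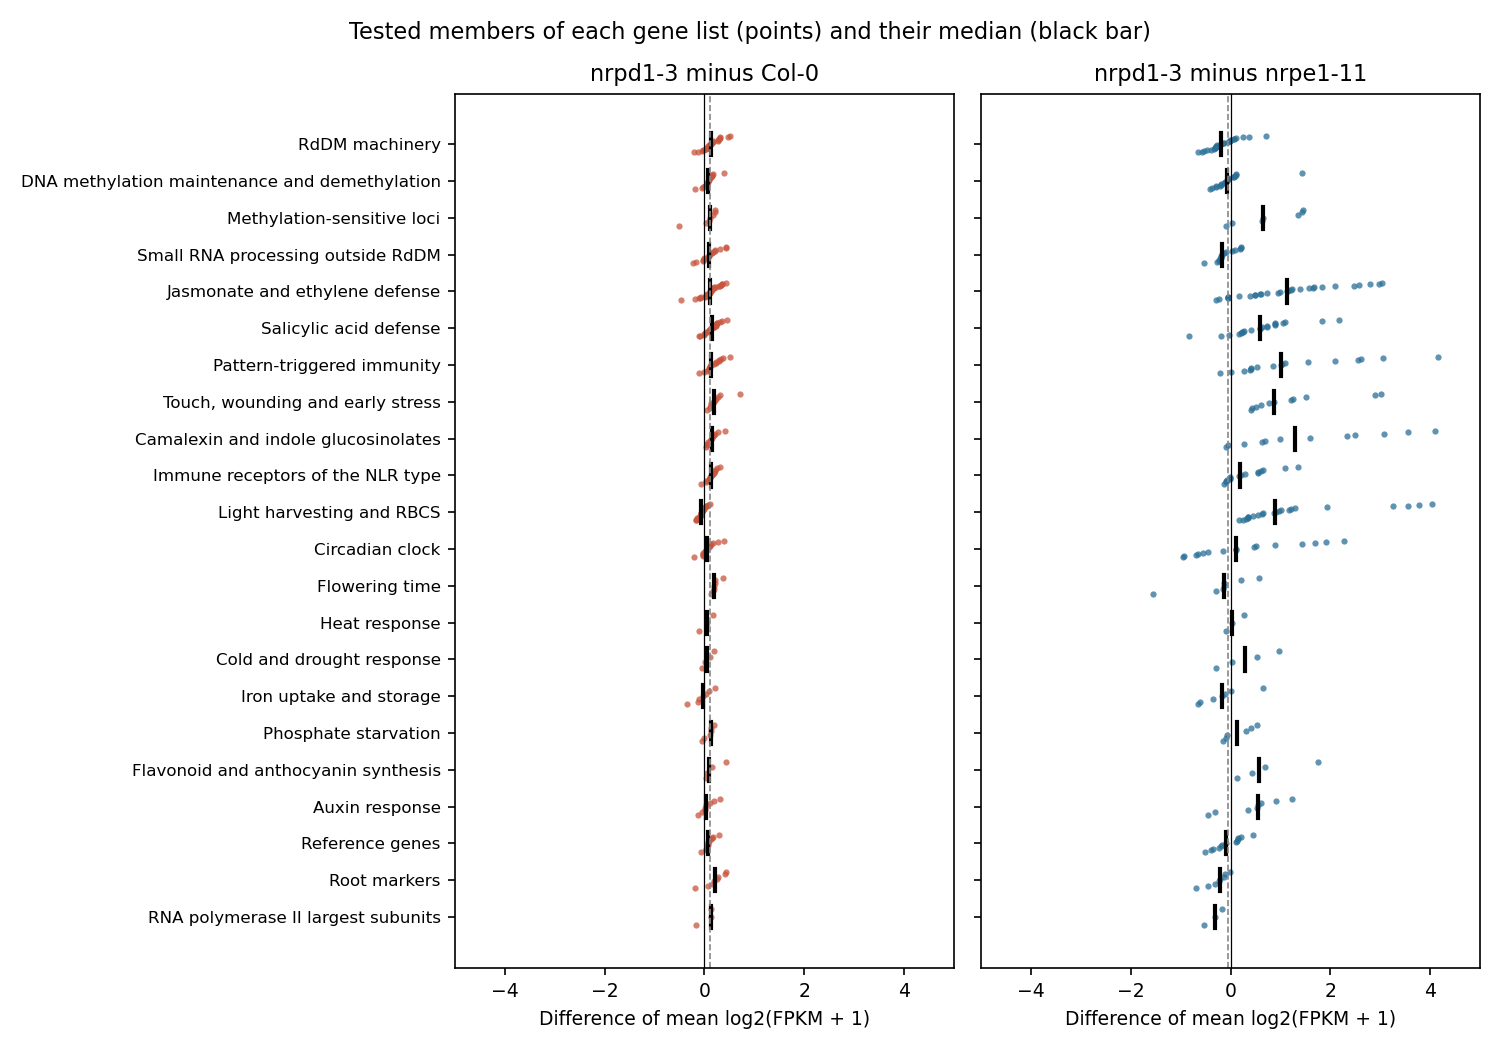
Difference of mean log2(FPKM + 1) (horizontal axes) for the tested members (points) of each gene list, with the list median as a black bar, for nrpd1-3 minus Col-0 in red and nrpd1-3 minus nrpe1-11 in blue on the same scale. The dashed line is the median of all tested genes, 0.11 for nrpd1-3 minus Col-0 and −0.06 for nrpd1-3 minus nrpe1-11, and the red points lie close to it while the blue points spread to over 4.

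Light-harvesting and Rubisco small subunit genes lay on the other side of the overall median. All 22 were tested and 0 were called. The differences ran from −0.17 to 0.11 with a median of −0.06, 17 were negative, and all 22 lay below the median of all tested genes, with a median of −0.17 relative to it. The 488 tested genes over 100 FPKM had a median of 0.06. After median-ratio rescaling the list median was −0.19, and 4 of the 22 were lower at an unadjusted p under 0.05, against 481 of the 17568 genes. LHCB1.1, an antenna protein of photosystem II, had 879.6, 857.5 and 865.9 FPKM in nrpd1-3, 57.1, 65.8 and 64.3 FPKM in nrpe1-11, and 922.5, 1018 and 978.5 FPKM in Col-0. Its nrpd1-3 values lay below Col-0 without overlap (difference −0.16, 95% interval −0.33 to 0.01, adjusted p = 0.677). LHCB2.2 had 289.7, 327.1 and 277.5 FPKM in nrpd1-3, 27.0, 30.0 and 33.6 FPKM in nrpe1-11, and 314.9, 346.1 and 346.2 FPKM in Col-0. LHCB2.2 differed from Col-0 by −0.17 and LHCB1.2 by −0.14 (adjusted p = 0.677 each), both with overlapping groups. Copies of these genes are near-identical, so reads may be split between them. The 22 genes summed to 22846 to 24377 FPKM in nrpd1-3 and 22818 to 26091 FPKM in Col-0. Of the 22 genes 20 were called between the mutants, all higher in nrpd1-3 (8.9% of all tested genes were), with a median of 0.89. This list too was chosen with earlier results of these data known.

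All 16 clock genes were tested between nrpd1-3 and Col-0, 0 were called and the median difference was 0.05. RVE4, a MYB-like activator of evening genes, had 40.4, 33.5 and 37.9 FPKM in nrpd1-3, 32.1, 35.0 and 35.4 FPKM in nrpe1-11, and 27.1, 25.6 and 32.3 FPKM in Col-0. Its nrpd1-3 values did not overlap Col-0 (difference 0.39, 95% interval 0.15 to 0.62, adjusted p = 0.677). RVE4 was the 1 clock gene with an unadjusted p under 0.05 (6.25%, against 7.14% of all genes). TOC1, an evening repressor, had 33.7, 29.5 and 32.5 FPKM in nrpd1-3, 54.9, 48.1 and 50.1 FPKM in nrpe1-11, and 31.7, 25.5 and 30.1 FPKM in Col-0. LHY, a morning repressor, had 3.56, 4.0 and 2.87 FPKM in nrpd1-3, 0.708, 0.887 and 0.410 FPKM in nrpe1-11, and 3.02, 1.63 and 3.79 FPKM in Col-0. In TOC1 and LHY the nrpd1-3 and Col-0 values overlapped (differences 0.13 and 0.27, adjusted p = 0.737 and 0.753). Relative to nrpe1-11, TOC1 was lower in nrpd1-3 (−0.66, adjusted p = 0.000419) and LHY higher (1.43, adjusted p = 0.000521), and 11 of 16 clock genes were called, 6 higher and 5 lower in nrpd1-3, against 8.9% and 6.38% of all tested genes. The hour of collection is not given in the labels.

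Of 12 flowering-time genes 7 were tested, 0 were called, and the median difference was 0.19, with all 7 above the median of all tested genes. SOC1, an activator of flowering, had 31.0, 24.0 and 27.1 FPKM in nrpd1-3, 17.4, 18.6 and 18.2 FPKM in nrpe1-11, and 24.5, 15.7 and 23.4 FPKM in Col-0. The nrpd1-3 and Col-0 values of SOC1 overlapped (difference 0.37, 95% interval 0.05 to 0.69, adjusted p = 0.677). SOC1 was the 1 of 7 members with an unadjusted p under 0.05 (14.3%, against 7.14% of all genes). SVP and FLM, MADS-box regulators of flowering, differed from Col-0 by 0.18 and 0.22 (adjusted p = 0.685 and 0.703). FLC, the repressor controlled by vernalization, had 1.28, 1.20 and 0.869 FPKM in nrpd1-3 against 0.602, 0.765 and 1.54 FPKM in Col-0, with overlapping values.

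Lists of other responses held 0 called genes against Col-0 and none with an unadjusted p under 0.05. Their median differences from Col-0 were 0.06 for heat (3 of 6 tested), 0.06 for cold and drought (4 of 7), −0.03 for iron (7 of 11), 0.12 for phosphate starvation (6 of 9), 0.10 for flavonoids (4 of 12), 0.02 for auxin (8 of 9), 0.07 for common reference genes (13 of 13) and 0.12 for the large subunits of RNA polymerase II (3 of 3). The smallest p of each belonged to HSP101, COR47, BHLH39, PHO2, FLS1, IAA1, UBC21 and NRPB1, with differences between −0.35 for BHLH39, a regulator of iron uptake, and 0.43 for FLS1, a flavonol synthase, and adjusted p from 0.677 to 0.822. BHLH39 passed the filter through Col-0 alone. Over all 24 lists, 340 genes, 276 were tested, and 12 were higher and 1 lower at an unadjusted p under 0.05 (4.71%, against 7.14% of all genes). The 64 list members below the filter had 0 to 2.15 FPKM in nrpd1-3 libraries and 0 to 2.39 FPKM in Col-0 libraries, and 5 were listed at 0 in all 6.

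In place of called genes, the 12 genes with the smallest p in each direction are described by their values. Among those higher in nrpd1-3, AT4G08555 (chr4:5448049-5448638, + strand), an uncharacterized protein, had 13.7, 14.1 and 12.3 FPKM in nrpd1-3, 0.886, 1.71 and 1.58 FPKM in nrpe1-11, and 8.22, 6.41 and 6.78 FPKM in Col-0. The 3 genotypes did not overlap, with nrpd1-3 highest and nrpe1-11 lowest. The difference of nrpd1-3 minus Col-0 was 0.82 (95% interval 0.46 to 1.19, adjusted p = 0.677), and that of nrpd1-3 minus nrpe1-11 was 2.60 (adjusted p = 3.62e-08). ADF4 (chr5:24122348-24123912, + strand), an actin depolymerizing factor, had 54.1, 47.5 and 54.2 FPKM in nrpd1-3, 53.2, 58.3 and 54.7 FPKM in nrpe1-11, and 39.8, 34.7 and 40.1 FPKM in Col-0. Both mutants lay above every Col-0 library of ADF4 (nrpd1-3 minus Col-0 0.43, 95% interval 0.23 to 0.64, adjusted p = 0.677). AT1G12340, a cornichon family protein, had 1.35, 1.86 and 2.15 FPKM in nrpd1-3 and 0, 0.678 and 0 FPKM in Col-0, and was listed at 0 in all 3 nrpe1-11 libraries. PIT1, a RING zinc finger protein, had 8.45, 9.74 and 10.6 FPKM in nrpd1-3, 10.9, 13.2 and 9.19 FPKM in nrpe1-11, and 6.23, 5.17 and 5.76 FPKM in Col-0. The other 8 were AT1G09605, AT4G18740, AT1G09867, AT4G07995, AT1G21080, AT2G19750, AT5G05990 and AT2G16310, with differences from 0.47 to 1.24. AT1G12340, AT1G09605 and AT2G16310 passed the filter through nrpd1-3 alone, where they are high, so they had to lie above Col-0. ADF4, AT4G18740, AT4G07995 and AT5G05990 overlap another annotated gene.

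Among those lower in nrpd1-3, AT2G05225 (chr2:3337623-3337896, + strand), an uncharacterized RNA, had the smallest p of all tested genes, 0.000208 before adjustment and 0.677 after. It had 3.76, 2.53 and 4.90 FPKM in nrpd1-3, 4.89, 7.05 and 5.65 FPKM in nrpe1-11, and 9.07, 7.42 and 7.35 FPKM in Col-0, a difference from Col-0 of −0.94 (95% interval −1.36 to −0.53). AT2G04965, a small nucleolar RNA of 66 bases, had 0.667, 3.16 and 1.36 FPKM in nrpd1-3, 1.62, 9.14 and 5.25 FPKM in nrpe1-11, and 10.2, 6.21 and 8.05 FPKM in Col-0. AT1G15825, a hydroxyproline-rich glycoprotein gene, had 0, 0 and 2.43 FPKM in nrpd1-3, 5.22, 0.614 and 0 FPKM in nrpe1-11, and 5.49, 6.26 and 4.11 FPKM in Col-0. All nrpd1-3 values of these 3 genes lay below all Col-0 values. AT5G06630, an extensin-like protein of the cell wall, had 2.83, 4.46 and 2.63 FPKM in nrpd1-3, 6.38, 8.59 and 6.54 FPKM in nrpe1-11, and 5.83, 8.43 and 4.83 FPKM in Col-0. GNA1, an acetyltransferase of amino sugar synthesis, had 0.504, 2.23 and 2.34 FPKM in nrpd1-3, 6.70, 8.94 and 4.15 FPKM in nrpe1-11, and 5.29, 4.21 and 3.76 FPKM in Col-0. Both AT5G06630 (−0.94, adjusted p = 0.00559) and GNA1 (−1.53, adjusted p = 0.00176) were lower in nrpd1-3 than in nrpe1-11, and their differences from Col-0 were −0.77 and −1.09 (adjusted p = 0.677 each). The other 7 were AT4G39880, AT5G14285, PDE337, AT2G31710, AT3G20365, AT2G05215 and AT1G07119, with differences from −1.01 to −0.49. AT2G05215 and AT1G07119 passed the filter through Col-0 alone, where they are high, so they had to lie below it in nrpd1-3. AT1G15825, GNA1, AT2G05215 and AT1G07119 overlap other genes. AT2G04965, and AT1G09867 among the higher genes, are small nucleolar RNAs. That class had a median standard error of 0.37 against 0.17 for protein-coding genes, so its values are less precise. The libraries were made from polyadenylated RNA, and how well this class was captured was not tested.

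Differences past 2-fold of FPKM + 1 were few. There were 9 genes higher and 14 lower by at least 1 on the log2 scale, and 3 of the 23 had a mean of at least 5 FPKM, all 3 lower. Genes with few FPKM can change by more than 2-fold in FPKM and not be among these 23. An example is AT2G05225, with a mean of 3.73 FPKM in nrpd1-3 and 7.95 FPKM in Col-0. AT2G07698, an ATPase subunit family protein, had 28.6, 30.9 and 0 FPKM in nrpd1-3 against 30.6, 32.5 and 30.4 FPKM in Col-0. The gene emb1513 had 0, 10.2 and 11.3 FPKM in nrpd1-3 against 11.4, 10.03 and 11.7 FPKM in Col-0. In both genes the difference came from 1 nrpd1-3 library listed at 0, which can be a failed estimate, and the other two were near Col-0. AT5G11090 had 8.59, 1.31 and 2.98 FPKM in nrpd1-3 against 4.30, 14.3 and 15.7 FPKM in Col-0, with overlapping values.

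Noncoding classes varied more than messenger RNAs. Protein-coding genes numbered 17042, with a median difference of 0.11 and a median standard error of 0.17. The 72 small nucleolar RNAs had a median difference of 0.13 with a median standard error of 0.37, the 20 microRNA genes −0.03 with 0.38, and the 7 transfer RNAs −0.58 with 0.44. How well these 3 classes were captured with polyadenylated RNA was not tested. The 4 tested small nuclear RNAs were copies of the spliceosomal U2 RNA, named here after their values were seen. U2.10 had 2.88, 2.64 and 2.60 FPKM in nrpd1-3, 7.26, 8.51 and 5.55 FPKM in nrpe1-11, and 1.75, 1.44 and 0.597 FPKM in Col-0. In U2.10 the nrpd1-3 libraries lay between nrpe1-11 and Col-0 without overlap. U2.11 had 6.36, 10.3 and 14.0 FPKM in nrpd1-3, 24.8, 26.0 and 14.0 FPKM in nrpe1-11, and 3.29, 4.80 and 6.68 FPKM in Col-0. U2.1 had 2.72, 2.87 and 6.44 FPKM in nrpd1-3, 4.73, 14.3 and 5.99 FPKM in nrpe1-11, and 0.269, 1.41 and 2.03 FPKM in Col-0. The differences of nrpd1-3 minus Col-0 were 0.75 for U2.10, 0.90 for U2.11, 1.18 for U2.1 and 0.45 for U2.5 (adjusted p = 0.677, 0.677, 0.677 and 0.703), and those of nrpd1-3 minus nrpe1-11 were −1.11 for U2.10 and −1.02 for U2.11 (adjusted p = 0.00218 and 0.0167). These are near-identical copies that are not normally polyadenylated, and U2.1, U2.10 and U2.11 overlap other genes, so their values are uncertain.

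Near the mutated gene no difference passed the test. Within 100 kb of NRPD1, 26 genes were tested, 0 were called, 1 had an unadjusted p under 0.05 (3.85%, against 7.14% of all genes) and the median difference was 0.13. That gene was UGE3, a UDP-glucose epimerase, with 9.64, 8.01 and 11.3 FPKM in nrpd1-3, 15.7, 14.1 and 13.4 FPKM in nrpe1-11, and 9.05, 4.85 and 7.04 FPKM in Col-0. Its nrpd1-3 and Col-0 values overlapped (difference 0.44, adjusted p = 0.677). The medians of the 5 chromosomes ran from 0.10 to 0.11.

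**Figure D5:**
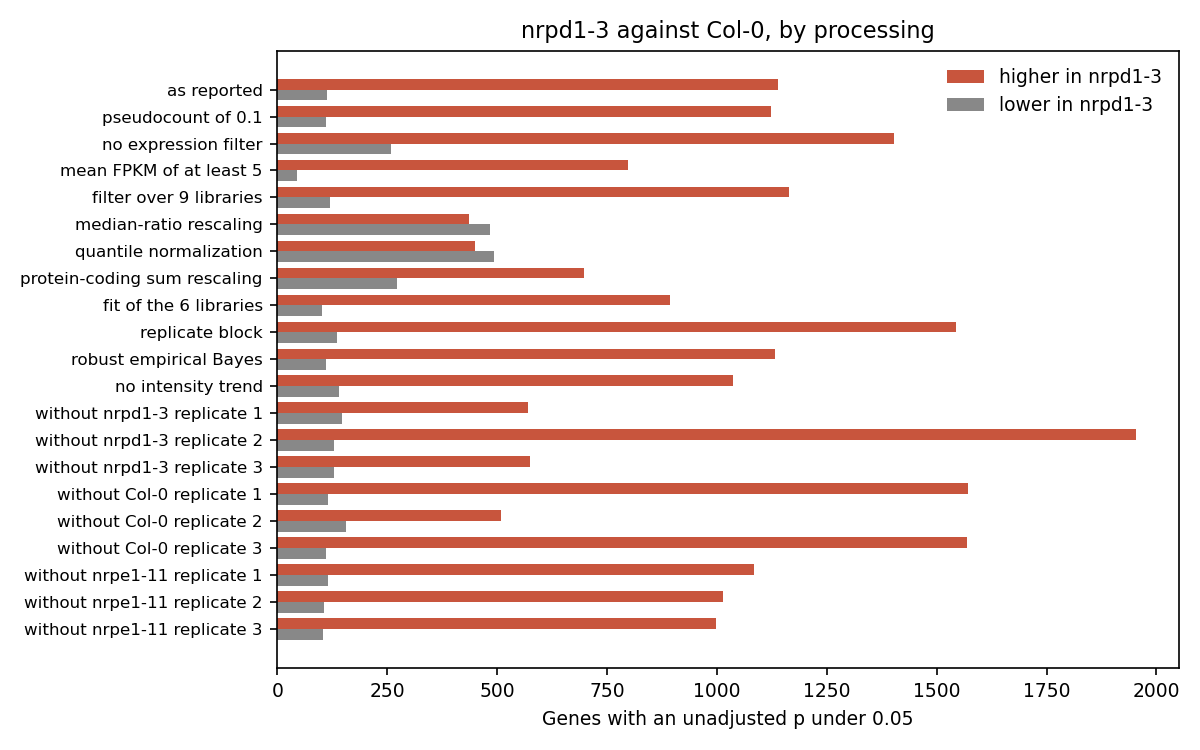
Number of genes with an unadjusted p under 0.05 in nrpd1-3 against Col-0 (horizontal axis) under each processing choice, with genes higher in nrpd1-3 in red and lower in grey. As reported there are 1140 and 114, and after median-ratio rescaling 437 and 484, while no gene has an adjusted p under 0.05 in any of them.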

How the data were processed

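The authors deposited 1 table of FPKM per gene for 9 libraries. Per the submitters' processing notes, the tools were HISAT2 2.2.1, StringTie 2.1.7 and fastp 0.23.2, the build was TAIR10, and settings are not given in the sources used here. Per the labels' protocols, polyadenylated RNA was isolated with Dynabeads and libraries were made with a NEXTflex kit. Read numbers and strandedness are not given in the sources used here. The spacing of low values did not give whole reads (64.0% to 69.4% of low values near a step in the 6 libraries), so depth is unknown and no interval rests on counts. The table had 37929 lines. AT1G58520 was on 32 of them, and the line with the highest sum was kept.

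Log2(FPKM + 1), computed here from the deposited FPKM, entered a linear model of all 9 libraries with a mean for each genotype (limma 3.58.1, R 4.3.3), empirical Bayes with an intensity trend, and two-sided tests. P-values were adjusted by the Benjamini-Hochberg method over the 17568 tested genes, and called genes are those with an adjusted p under 0.05. Genes below the filter were read from the same fit without a filter. The workflow was tested on simulated data. Coordinates and gene types came from the TAIR10.1 annotation, and 98 genes were taken as transposable elements from its text. The genes, the 24 lists and the tests were chosen with earlier results of these data known. Named genes were NRPD1 and NRPE1, the 12 smallest p in each direction in place of calls, up to 3 members of each list by smallest p, and called elements and neighbours. Any other gene was named after its values were seen, some for their role (NRPD2A, SHH1, DCL3, AGO4, DRM2, MET1, FLC, SDC, FWA, ROS1).

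Alternatives were a pseudocount of 0.1, other filters (none, a mean FPKM of at least 5, all 9 libraries), median-ratio, quantile and protein-coding-sum rescaling, a fit of 6 libraries, the replicate number as a block, robust empirical Bayes, no trend, a 2-fold threshold, and each of the 9 libraries left out in turn (those of nrpe1-11 added after seeing the data). Figures were drawn with matplotlib 3.10.9 under python 3.11.15.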

Additional observations from a re-analysis of the deposited data

How the results depend on the processing

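Limma called 0 genes between nrpd1-3 and Col-0 under every alternative run, and the smallest adjusted p ranged from 0.0902 without Col-0 replicate 1 to 0.962 without nrpd1-3 replicate 3. The median difference of all tested genes, 0.11, was 0.000183 after median-ratio rescaling and 0.00189 after quantile normalization, and ran from 0.04 to 0.16 with each library left out in turn. Genes higher and lower at an unadjusted p under 0.05 were 450 and 493 after quantile normalization and 698 and 272 after rescaling to the protein-coding sum, so 47.7% and 72% were higher, against 90.9% as reported. The NRPD1 difference, 0.06, ran from −0.03 to 0.20 with each library left out. The 2684 genes that differed between nrpd1-3 and nrpe1-11 were 686 with at least 2-fold, and 1993 to 3344 with a library left out (leaving out an nrpe1-11 library was added after seeing the data). The 6-library fit gives no such count, and the 2-fold threshold gives no value for medians or single genes. Replicate numbers were not taken as pairs in the fit as reported, since the labels give no batch. Same-numbered nrpd1-3 and Col-0 libraries deviated together with correlations of 0.0655, 0.158 and 0.0297. Between differently numbered libraries the correlations ran from −0.136 to 0.0788. Replicate 2 gave the highest value, so the numbers do not settle whether replicates were paired. With the replicate block, 0 genes were called against Col-0 (smallest adjusted p 0.513), 1544 were higher and 137 lower at an unadjusted p under 0.05, and 3002 differed between nrpd1-3 and nrpe1-11. The low level of a gene limits precision, with a median standard error of 0.24 for the 2500 tested genes under a mean of 2 FPKM and 0.09 for the 488 over 100 FPKM.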

Other observations

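Some genes were listed at 0 in every library of 1 genotype. In all, 40 genes were at 0 in the 3 nrpd1-3 libraries and above 0 in each Col-0 library, and 50 were at 0 in the 3 Col-0 libraries and above 0 in each nrpd1-3 library. With at least 0.3 FPKM in each library of the other genotype the numbers were 5 and 14, and with at least 1 FPKM they were 0 and 0. AT5G28450, annotated as a chlorophyll a-b binding family protein, had 1.78, 0.948 and 1.23 FPKM in nrpd1-3 and 0, 0 and 0.403 FPKM in nrpe1-11, and was listed at 0 in Col-0. AT1G07407, a long noncoding RNA that overlaps a gene on the other strand, had 1.32, 0.739 and 0.856 FPKM in nrpd1-3 and was listed at 0 in all nrpe1-11 and Col-0 libraries. AT3G26135, an oxygenase family protein that overlaps a gene on the other strand, was listed at 0 in nrpd1-3, with 1.38, 0.864 and 1.39 FPKM in nrpe1-11 and 1.20, 1.94 and 0.6 FPKM in Col-0. These 3 genes were picked after their values were seen and were below the expression filter. A listed 0 can be a failed estimate.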
